A study of Mus musculus with 12 samples.

Results

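Aminoacyl-tRNA synthetases are the enzymes that join each amino acid to its transfer RNA, and the charged tRNA then brings the amino acid to the ribosome. Cells run this reaction in the cytosol and again inside mitochondria, in most cases with separate nuclear genes whose mitochondrial member carries the suffix 2. Several cytosolic enzymes are held together in the multisynthetase complex, and a number of cytosolic synthetase genes are known targets of ATF4, the transcription factor that is translated when uncharged tRNA accumulates. Ethionine, the agent given here, is the ethyl analogue of methionine.

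The synthetase genes were taken by symbol from a table of read counts, as every protein-coding gene named for an amino acid letter and the ending "ars", with or without a suffix, together with Eprs, Farsa and Farsb. A gene had to hold 10 or more counts in at least 6 of the 12 libraries. All 37 candidates met this, of 56205 genes in the table, with 45 to 5627 counts in a single library, and each of them also passed the low-count filter of the test. They comprised 20 cytosolic genes, among them Gars and Kars, which supply both compartments, and 17 mitochondrial genes. Symbols are those of the annotation, so that Aars or Mars stands for the gene now called Aars1 or Mars1.

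The libraries held poly(A)-selected RNA of whole liver from obese, leptin-deficient ob/ob mice, in 2 groups of 6. Mice labelled OBOB_FLO had standard chow, and mice labelled OBOB_Fibrotic had the same chow with DL-ethionine. The words fibrotic and FLO are used below as names of these groups, after the labels, and not as findings about the tissue. The study reports that Col1a1 did not differ under ethionine in ob/ob mice, and describes the model by microvesicular steatosis and inflammation. The design text gives 0.165% ethionine in drinking water for 2 weeks and males in both groups, another label gives an injection of 0.15%, and the methods of the study give 0.15% in the water for 1 week in mice aged 8 to 10 weeks at the start. All 12 mice carried the ob/ob genotype. In whole liver, fewer cells of a type and less RNA per cell cannot be told apart. Fibrotic libraries held 17815568 to 20352675 counts in all, and FLO libraries 18275320 to 24814263. FLO replicate 3 held 3773 Xist counts against 0 to 4 elsewhere and 4 Ddx3y counts against 556 to 977, which goes against its label as a male, and without it the same 6 synthetase genes were called.

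To ask how ethionine altered synthetase mRNA, the groups were compared with the edgeR quasi-likelihood test over all 13416 genes that passed the low-count filter. Calling required an adjusted p of at most 0.01 and a log2 fold change beyond 0.5 in either direction. Of the 37 synthetase genes, 6 were called (16.2%), beside 29.9% of all tested genes. Pars2, Yars2, Gars and Ears2 rose, beside 15.9% of all tested genes called higher, and Tars and Vars2 fell, beside 14% called lower. The remaining 31 genes were not called and lay within 0.5 of no change on the log2 scale. The log2 fold changes ran from -0.84 to 1.42, with 18 positive and 19 negative. Their median was -0.00, and the median of all tested genes was 0.03. The median absolute log2 fold change was 0.28 for the synthetase genes and 0.38 for all tested genes.

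**Figure D1:**
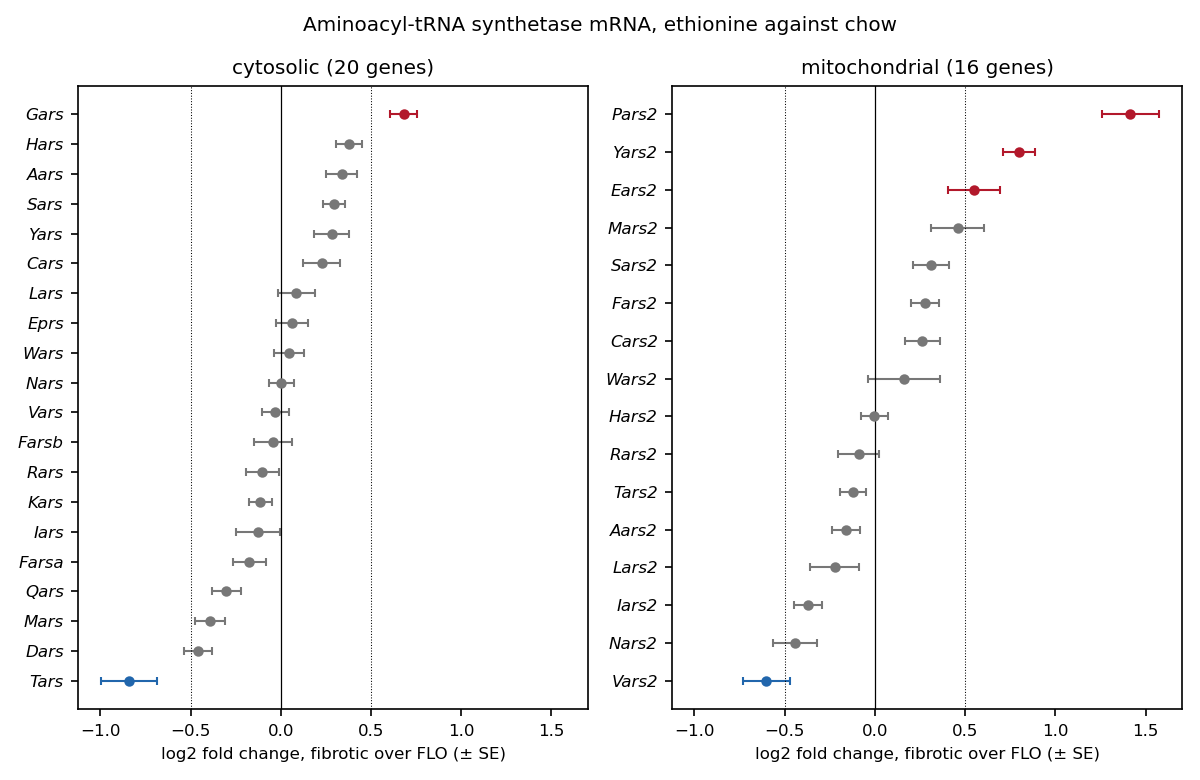
The log2 fold change of 36 synthetase genes, fibrotic over FLO, with its SE as a horizontal bar, for 20 cytosolic genes (left) and 16 mitochondrial genes (right). Red marks genes called higher, blue genes called lower and grey genes not called, and dotted lines stand at the fold threshold of 0.5. Pars2 stands apart at 1.42, and most genes lie between the dotted lines.

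Among mitochondrial synthetases, the clearest rise was that of Pars2, which charges prolyl-tRNA in mitochondria (chromosome 4, 106651069 to 106655282, GRCm38). Its CPM, which is its count relative to the normalized size of the library, had a lowest, median and highest value of 6.45, 8.63 and 9.07 in fibrotic livers and of 2.46, 2.67 and 4.38 in FLO livers. Every fibrotic library was above every FLO library. The means were 8.15 ± 1.05 and 3.06 ± 0.75 CPM (SD, n = 6 each), and the log2 fold change was 1.42 (SE 0.16, edgeR adjusted p = 3.28e-06). These are the lowest levels among the genes called.

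Yars2, the mitochondrial tyrosyl-tRNA synthetase (chromosome 16, 16302965 to 16309640), ran from 29.5 through a median of 33.8 to 38.0 CPM in fibrotic libraries. In FLO libraries it ran from 16.4 through 20.2 to 21.2 CPM, with no overlap. It rose by 0.80 on the log2 scale (SE 0.09, edgeR adjusted p = 3.93e-06). Ears2, which charges mitochondrial glutamyl-tRNA (chromosome 7, 122037213 to 122067263), was at 12.5, 14.6 and 16.9 CPM (lowest, median, highest) in fibrotic and 7.58, 9.03 and 14.03 CPM in FLO livers. The highest FLO library reached into the fibrotic range. Its log2 fold change of 0.55 (SE 0.15, edgeR adjusted p = 0.00508) sat close to both thresholds. Its call was lost without fibrotic replicate 2, 3 or 5 (log2 fold changes 0.54, 0.51 and 0.54) and without FLO replicate 2, 4, 5 or 6 (0.50, 0.55, 0.48 and 0.50), with adjusted p up to 0.0145.

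Vars2, the mitochondrial valyl-tRNA synthetase (chromosome 17, 35655634 to 35667592), was the mitochondrial member that fell. Its fibrotic libraries lay at 11.1, 15.2 and 17.98 CPM (lowest, median, highest) and its FLO libraries at 16.3, 23.4 and 26.8 CPM. The overlap came from FLO replicate 6, the lowest FLO library by a wide gap. The log2 fold change was -0.60 (SE 0.13, edgeR adjusted p = 0.0013), and with libraries scaled by total counts alone it was -0.43 and not called. Exons of Ears2 overlap those of Ubfd1 and exons of Vars2 those of an antisense gene, on the other strand. The methods name a stranded library kit for RNA-seq, without naming these samples, but not whether the counting used strand, and the part of the partners' reads in these values was not tested.

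In the cytosolic set, Gars rose and Tars fell. Gars, the glycyl-tRNA synthetase of cytosol and mitochondria (chromosome 6, 55038007 to 55079500), ran from 73.5 through a median of 77.3 to 89.9 CPM in fibrotic and from 44.8 through 50.4 to 52.5 CPM in FLO livers. The groups did not overlap, and the log2 fold change was 0.68 (SE 0.07, edgeR adjusted p = 2.51e-06). Tars, the cytosolic threonyl-tRNA synthetase (chromosome 15, 11382301 to 11399665), lay at 42.0, 47.7 and 57.6 CPM in fibrotic libraries and at 68.5, 73.1 and 122.7 CPM in FLO libraries. All fibrotic libraries were below all FLO libraries, while FLO replicates 1 and 3, at 112.3 and 122.7 CPM, stood above the other FLO libraries at 68.5 to 73.4 CPM. Tars changed by -0.84 on the log2 scale (SE 0.15, edgeR adjusted p = 0.000318), and by -0.90 to -0.72 when each library was left out in turn.

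**Figure D2:**
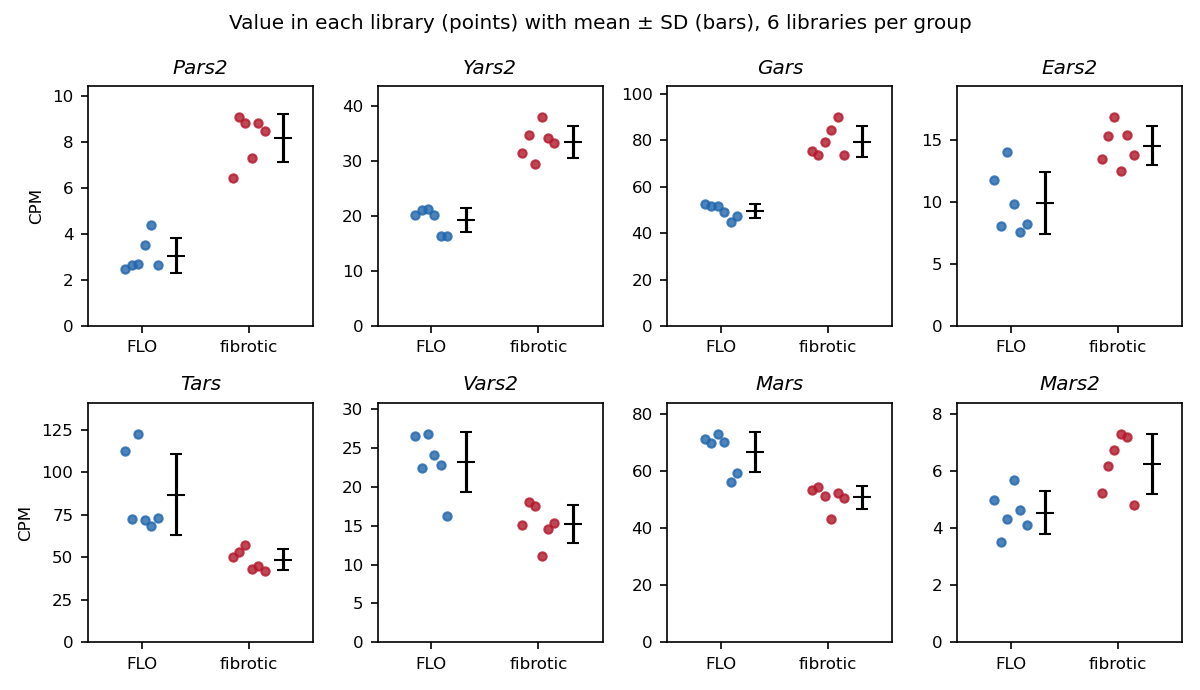
CPM of the 6 called synthetase genes and of Mars and Mars2 in each library (points), with the mean and SD of 6 libraries per group (black bars), each axis starting at 0. The groups are apart for Pars2, Yars2, Gars, Tars and Mars, and overlap for Ears2, Vars2 and Mars2.

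Because ethionine is an analogue of methionine, the methionyl-tRNA synthetases were examined whether or not they were called. Cytosolic Mars (chromosome 10, 127296221 to 127311786) ran from 43.1 through 51.7 to 54.2 CPM in fibrotic and from 56.1 through 70.0 to 73.0 CPM in FLO libraries, with no overlap. Its log2 fold change of -0.39 (SE 0.08, edgeR adjusted p = 0.00121) passed the adjusted p and not the fold threshold. Exons of Mars overlap those of Ddit3 on the other strand. The table holds 2 identifiers with the symbol Ddit3. The one with most counts held 3.40 and 4.46 CPM on average in fibrotic and FLO livers. How shared reads were counted is not stated, and their part in the Mars values was not tested. Mitochondrial Mars2 (chromosome 1, 55237177 to 55248470) had lowest, median and highest values of 4.81, 6.45 and 7.30 CPM in fibrotic and 3.50, 4.47 and 5.68 CPM in FLO libraries, which overlapped. Its log2 fold change of 0.46 (SE 0.15, edgeR adjusted p = 0.0162) was not called. Without fibrotic replicate 6 or FLO replicate 4, Mars2 reached 0.53 and 0.53 and was called (adjusted p = 0.00874 and 0.00954), as it was with libraries scaled by total counts alone, at 0.64 (adjusted p = 0.0034).

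At an adjusted p of 0.01 or less with no fold threshold, 15 of the 37 genes passed (40.5%), beside 38.9% of all tested genes. Of these, 8 were higher, beside 20.3% of all tested genes, and 7 were lower, beside 18.6%. The 9 genes that passed without reaching the fold threshold were Hars, Aars, Sars and Fars2, with log2 fold changes of 0.38, 0.34, 0.29 and 0.28, and Dars, Nars2, Mars, Iars2 and Qars, with -0.46, -0.44, -0.39, -0.37 and -0.30. Dars, the cytosolic aspartyl-tRNA synthetase, ran from 43.8 to 50.6 CPM in fibrotic and from 57.7 to 72.6 CPM in FLO livers. Aars, the alanyl-tRNA synthetase, ran from 243.7 to 272.9 CPM against 181.7 to 240.0 CPM. Nars2 was called when fibrotic replicate 3 was left out, at -0.51. The groups did not overlap for 6 genes that were higher, namely Gars, Hars, Aars, Sars, Pars2 and Yars2, beside 15.3% of all tested genes, and for 4 that were lower, namely Tars, Dars, Mars and Iars2, beside 15.1%. The other 22 genes had adjusted p from 0.0156 to 0.983.

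The summed levels of the groups overlapped, while single genes moved in opposite directions. All synthetase genes together held 1464 ± 18.3 CPM in fibrotic and 1443 ± 120 CPM in FLO livers (SD, n = 6 each). The cytosolic genes held 1119 ± 26.6 and 1093 ± 99.3 CPM, and the mitochondrial genes 345.1 ± 17.5 and 350.7 ± 24.0 CPM. In each case the fibrotic range lay inside the FLO range. By compartment, 2 of 20 cytosolic genes were called (10%, beside 29.9% of all tested genes), 1 in each direction, with a median log2 fold change of -0.01. Of 17 mitochondrial genes 4 were called (23.5%), 3 higher and 1 lower, with a median of -0.00.

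Levels between genes were set side by side as CPM per kb of the annotated transcript with the longest coding part. In FLO livers, Aars (35.7 ± 4.08 CPM per kb), Nars (34.4 ± 1.96), Sars (29.6 ± 1.61), Dars (29.5 ± 3.02) and Kars (27.2 ± 1.08) stood highest (SD, n = 6 each). Aars and Nars, and likewise Sars and Dars, did not differ beyond their spread. The median was 15.8 CPM per kb over cytosolic and 5.62 over mitochondrial genes. Mars2 (0.40 ± 0.07), Wars2 (0.83 ± 0.17) and Pars2 (1.004 ± 0.25) stood lowest. The place of Mars2 rests on an annotated transcript of 11294 bases, of which 1758 are coding. In CPM not divided by length, the FLO means were 4.54 for Mars2, 3.65 for Wars2 and 3.06 for Pars2. Iars2, for isoleucine, was the highest mitochondrial gene at 17.6 ± 1.32 CPM per kb, above Iars, its cytosolic counterpart, at 6.89 ± 1.56. Exons of Iars2 overlap those of Rab3gap2 and of an antisense gene on the other strand. The part of shared reads in the Iars2 values was not tested. In fibrotic livers Gars reached 33.4 ± 2.77 CPM per kb from 20.8 ± 1.28, while Tars was at 12.1 ± 1.56 against 21.7 ± 5.99. Annotated lengths include untranslated parts that liver may not use, and the reads of Aars can mix with those of Exosc6, whose exons it overlaps on the same strand.

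**Figure D3:**
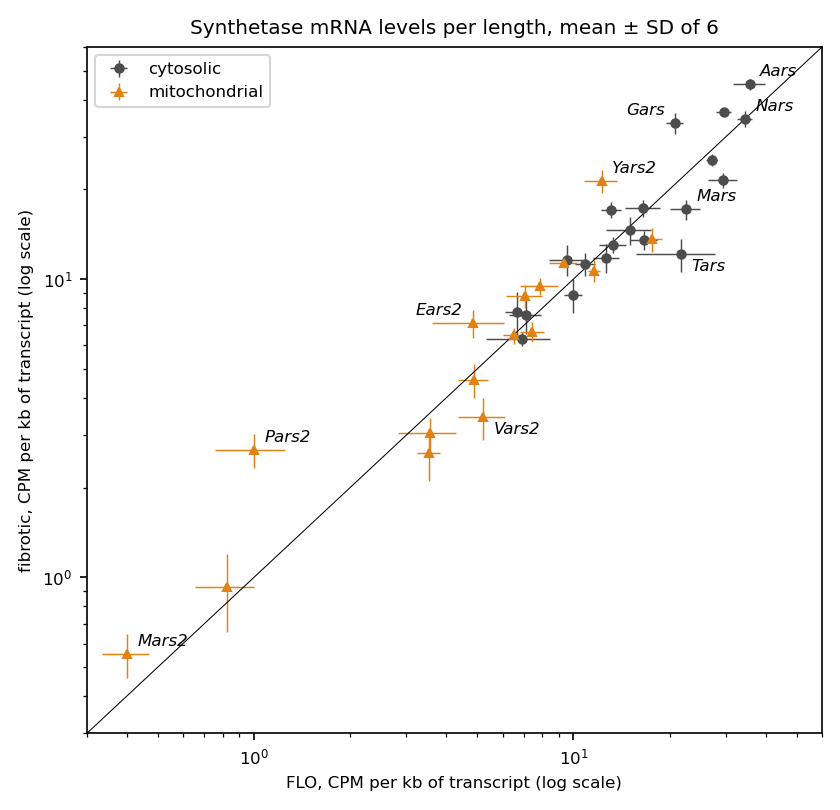
Mean CPM per kb of transcript in FLO livers (x axis) and fibrotic livers (y axis) on log scales, with SD of 6 libraries as bars, for cytosolic (circles) and mitochondrial (triangles) synthetase genes. The line marks equal levels, and Pars2, Yars2 and Gars lie above it and Tars and Vars2 below it.

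Since the scaling between libraries cancels in a ratio taken within a library, cytosolic and mitochondrial enzymes for the same amino acid were compared as pairs. Of 18 pairs, 12 differed between groups at an adjusted p of 0.05 or less, with 7 ratios lower and 5 higher in fibrotic livers. The test was an exact permutation of the group labels, two-sided, adjusted over the 18 pairs. The share over other pairs of genes was not taken, and some of the 18 pairs share a gene, Eprs or Fars2. Of single genes, 38.9% of all tested genes had an edgeR adjusted p of 0.01 or less at any fold change. That share comes from another test and another threshold, on single genes, so it is no background for the 12 of 18 ratios. Whether these ratios differ more often than those of other gene pairs was not tested. The largest difference was that of Eprs, the cytosolic enzyme for glutamate and proline, to Pars2, at -1.34 on the log2 scale (adjusted p = 0.00779 by exact permutation, from the smallest p that 6 against 6 libraries allow, 0.00216). Mars to Mars2 was lower by 0.84, from a mean log2 ratio of 3.85 ± 0.27 in FLO to 3.02 ± 0.31 in fibrotic livers (SD, n = 6 each, exact permutation adjusted p = 0.00779), without overlap. Tars to Tars2 changed by -0.69, also without overlap, and Yars to Yars2, Eprs to Ears2, Farsa to Fars2 and Farsb to Fars2 by -0.52, -0.51, -0.46 and -0.32.

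In the other direction, Vars to Vars2 was higher by 0.57, Aars to Aars2 by 0.50, Nars to Nars2 by 0.46, Hars to Hars2 by 0.38 and Lars to Lars2 by 0.29. The groups did not overlap for Aars to Aars2 and Hars to Hars2. Exons of Hars and Hars2 overlap each other, so that this ratio depends on how shared reads were counted. Exons of Mars, Yars, Ears2, Fars2, Farsb, Vars2, Aars and Nars2 also overlap those of other genes. Of the ratios past the threshold, only Eprs to Pars2, Tars to Tars2 and Lars to Lars2 hold no such gene. The part of shared reads in the ratios was not tested. The pairs for cysteine, isoleucine, arginine, serine and tryptophan had adjusted p from 0.0809 to 0.916, with differences from -0.10 to 0.28. Lars to Lars2 lost its call in 8 and Farsb to Fars2 in 9 of the 12 comparisons that each left out 1 library, with differences of 0.24 to 0.34 and of -0.40 to -0.28. Over these 12 comparisons the number of pairs past the threshold ran from 10 to 12.

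**Figure D4:**
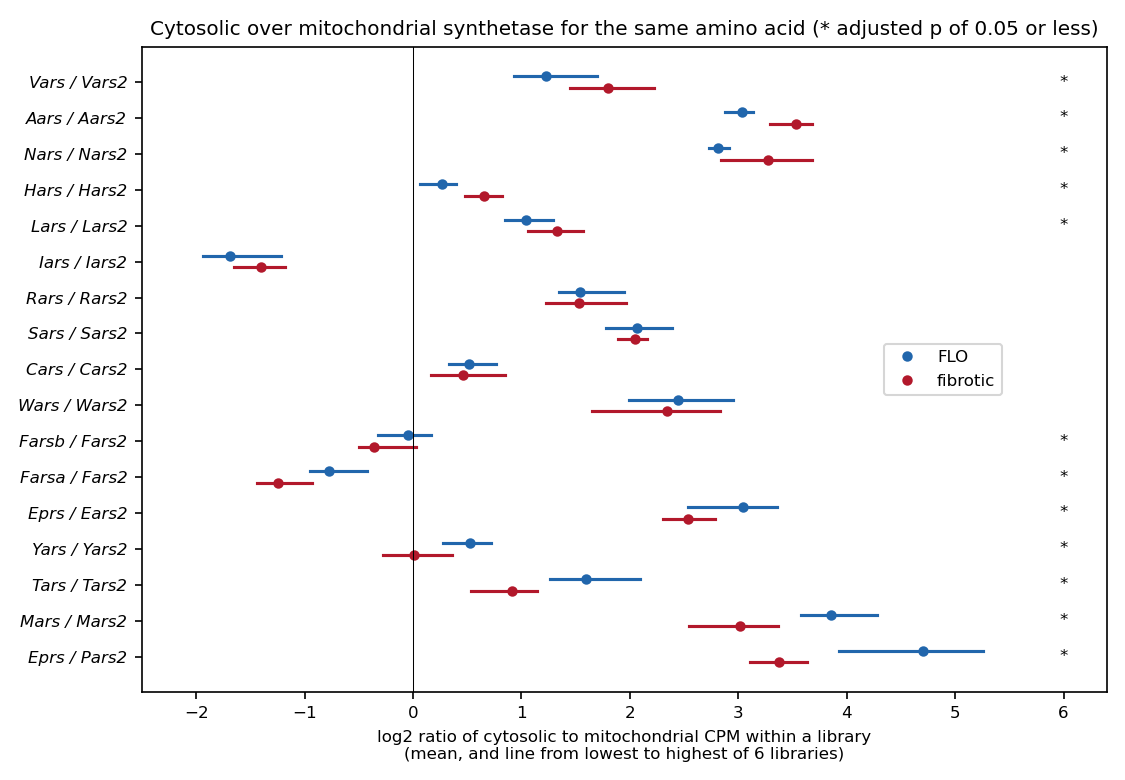
The log2 ratio of cytosolic to mitochondrial CPM for 17 pairs of synthetase genes, as the mean (point) and the span from lowest to highest library (line) of 6 FLO (blue) and 6 fibrotic (red) libraries. Stars mark the 12 pairs with an adjusted p of 0.05 or less, and the spans are apart for Eprs to Pars2, Mars to Mars2, Tars to Tars2, Aars to Aars2 and Hars to Hars2.

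The enzymes of the multisynthetase complex were described as a group. None of the 8 was called by edgeR, beside 29.9% of all tested genes, nor by DESeq2 or limma-voom, and 3 had an unadjusted p under 0.05. Dars, Mars and Qars passed the adjusted p alone with lower values in fibrotic livers (37.5%, beside 38.9% of all tested genes), and the median log2 fold change was -0.12 with 6 of 8 negative. Of the 12 cytosolic genes outside the complex, 2 were called (16.7%), with a median of 0.14. Of the 3 scaffold genes, Aimp1 fell by 0.58 on the log2 scale, from 11.8 ± 1.04 to 7.86 ± 1.87 CPM (edgeR adjusted p = 0.00304). Aimp2 and Eef1e1, the other scaffold genes, changed by -0.11 and 0.35 and were not called (adjusted p = 0.438 and 0.0267). Among all tested genes 14% were called lower.

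Genes that work beside the synthetases were counted by list. Among all tested genes 15.9% were called higher and 14% lower, and the counts of these lists lie near or below those shares. Of 10 accessory genes, Tarsl2, a second cytosolic threonyl-tRNA synthetase, fell by 0.79 on the log2 scale (edgeR adjusted p = 0.000948). Of 14 mitochondrial accessory genes, Gtpbp3, which modifies mitochondrial tRNA, rose by 1.06 and Qrsl1 by 0.65. Gatb fell by 0.88 and Gfm2, a mitochondrial translation factor, by 0.56. Qrsl1 and Gatb encode subunits of the same amidotransferase, which makes glutaminyl-tRNA in mitochondria from the product of Ears2. Of 6 cytosolic elongation factor genes, Eef1b2 fell by 0.83, and the median of the 6 was -0.30.

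The amino acid response driven by ATF4 was compared with the synthetase genes linked to that factor. Of 24 tested response genes, 10 rose and 1 fell, beside 15.9% and 14% of all tested genes, with a median log2 fold change of 0.54. Asns, which makes asparagine, rose from 0.58 ± 0.13 to 6.66 ± 4.90 CPM (SD, n = 6 each), a log2 fold change of 3.52. Slc7a5 and Slc3a2, the subunits of an amino acid transporter, rose by 1.72 and 1.71, Ddit4 by 1.68 and Aldh18a1, of proline synthesis, by 1.48. Atf5 fell by 0.84. Atf4 mRNA itself changed by 0.49 (edgeR adjusted p = 0.00255), just under the fold threshold. Trib3, another known target, stood at 0.05. In all, 13 of the 24 were not called, with log2 fold changes from -0.51 for Nupr1 to 1.17 for Psat1. Of the 13 ATF4-linked synthetases, Gars rose, Tars fell and 11 were not called, so that 15.4% were called beside 29.9% of all tested genes, with a median of 0.06.

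**Figure D5:**
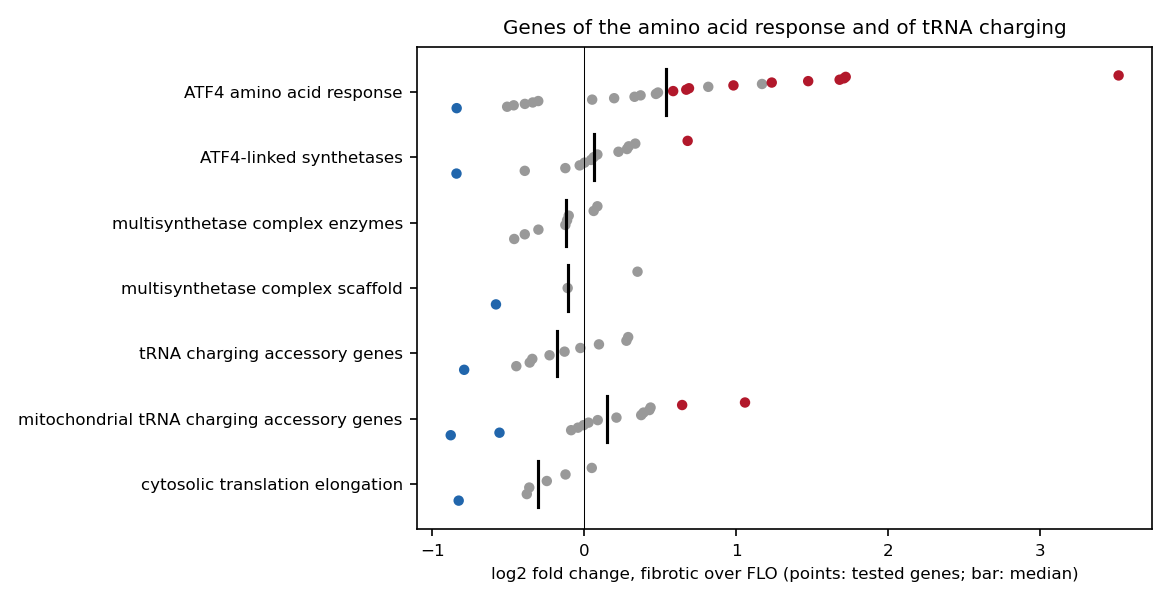
The log2 fold change, fibrotic over FLO, of the tested genes of 7 lists (points), with genes called higher in red, called lower in blue and not called in grey, and the median of each list as a black bar. The median is 0.54 for the ATF4 amino acid response and 0.06 for the ATF4-linked synthetases.

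Promoter sequence was examined for the C/EBP-ATF response element, the site through which ATF4 acts, by its core TGATGNAA on either strand. Windows from 250 bases before to 50 after the gene start (RefSeq, GRCm38.p6) were at hand for 27 of the 37 genes. The core was present in 5 of the 27 (18.5%), namely Aars, Gars, Iars, Tars and Yars, and in 4.51% of all 27025 genes with a window. The site nearest the gene start is shown for each, on the strand of its gene with 10 bases to either side and the core in capitals, since Gars and Tars carry it and moved in opposite directions.

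Gars, chr6:55037961-55037988, plus strand: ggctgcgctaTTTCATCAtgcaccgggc

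Tars, chr15:11399656-11399683, minus strand: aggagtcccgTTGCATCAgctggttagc

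Aars, chr8:111033841-111033868, plus strand: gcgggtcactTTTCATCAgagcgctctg

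Iars, chr13:49682127-49682154, plus strand: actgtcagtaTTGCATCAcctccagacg

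Yars, chr4:129189896-129189923, plus strand: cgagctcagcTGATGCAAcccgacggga

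The Gars core began 30 bases before the gene start and the Tars core 15 bases before it. Those shown for Aars, Iars and Yars lay just after the start, and Aars held another core upstream, at position -112 from the start. Of these 5 genes, Gars had a log2 fold change of 0.68, Aars of 0.34, Yars of 0.28, Iars of -0.12 and Tars of -0.84. The upstream sequences of Gars and Tars up to the first annotated exon are given with the core in capitals, as the pair with this core and opposite changes.

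Gars, chr6:55037751-55038000, plus strand: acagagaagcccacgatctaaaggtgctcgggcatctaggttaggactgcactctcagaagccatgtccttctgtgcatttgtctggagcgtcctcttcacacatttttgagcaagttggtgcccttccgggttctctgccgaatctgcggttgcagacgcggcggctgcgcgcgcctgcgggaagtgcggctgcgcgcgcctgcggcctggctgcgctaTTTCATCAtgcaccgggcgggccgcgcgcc

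Tars, chr15:11399666-11399908, minus strand: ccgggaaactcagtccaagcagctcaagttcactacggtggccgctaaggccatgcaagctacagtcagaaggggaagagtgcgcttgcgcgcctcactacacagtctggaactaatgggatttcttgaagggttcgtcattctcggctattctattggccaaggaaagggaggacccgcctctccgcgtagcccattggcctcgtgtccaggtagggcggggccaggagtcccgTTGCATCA

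A second motif, GCGCATGC, part of the binding site of nuclear respiratory factor 1, a regulator of nuclear genes for mitochondria, was looked for after the values had been seen. It was present on either strand in Rars2, Vars2 and Wars2, which is 3 of the 27 genes (11.1%), and in 3.05% of all genes with a window. Of these mitochondrial synthetases Vars2 fell, and Rars2 and Wars2 changed by -0.09 and 0.16 and were not called. No window of a synthetase gene held both motifs.

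Markers of several liver cell types differed between the groups. Over all tested genes, 15.9% were called higher and 14% lower. In lists of 5 or 8 markers, counts of 1 or 2 lie near these shares. Of 10 Kupffer cell and macrophage markers 6 rose, with a summed level of 247.0 to 495.1 CPM in fibrotic and 202.8 to 225.5 CPM in FLO livers. Of 5 cholangiocyte markers 3 rose (80.6 to 273.4 against 47.0 to 87.9 CPM), and of 5 endothelial markers 1 fell (111.9 to 142.0 against 149.6 to 166.6 CPM). Of 8 hepatocyte markers 1 rose and 2 fell, with a summed level of 51950 to 87150 CPM in fibrotic and 78200 to 90620 CPM in FLO livers, as the most abundant of these lists. Of 5 stellate cell markers 1 rose, and the 1 lymphocyte marker tested was not called. Of 9 pancreatic acinar markers found in the table, 5 had no count in any library and 2 were tested. The counts of Cela2a were 16 to 90 per fibrotic library against 0 to 1 per FLO library. Cela1 was not called, with means of 3.17 and 3.10 CPM in fibrotic and FLO livers and a log2 fold change of 0.03. The part of these cell types in the synthetase values was not tested.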

How the data were processed

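Poly(A) RNA of 12 livers was sequenced, 1 library per mouse, and groups and replicate numbers were read from the sample titles. The authors deposited raw whole-number counts per Ensembl gene. The submitters' processing notes name bcl2fastq, STAR 2.7.3a and mm10, and the methods of the study name PISCES, stated for human reads, and the TruSeq Stranded mRNA kit, without naming the samples. The mouse annotation and whether the counting used strand are not given in the sources used here. Symbols matched 51745 of 56205 identifiers, and those unmatched held 0.0587% of counts. Coordinates, lengths and exon overlaps came from GENCODE vM21 (GRCm38, the assembly called mm10).

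Counts were tested in R 4.3.3 with edgeR 4.0.16 (TMM, filterByExpr, robust quasi-likelihood test, Benjamini-Hochberg over all tested genes), at the FDR of 0.01 and absolute log2 fold change of 0.5 of the study's methods, where the study used DESeq2. An SE is the absolute log2 fold change over the square root of F. Pair ratios used log2 CPM with a prior count of 2, and their smallest exact p was 0.00216. The procedure was also run on counts simulated from the fitted means and dispersions of these libraries, which checks the code and not the calls. Libraries of a group differed by more than sampling noise (chi-square per degree of freedom from 10.3 in 30 pairs), so none was counted as a repeat.

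1 mitochondrial member and its pair ratio enter all counts and medians and are not reported singly here. Values were printed for the called members and for Mars and Mars2, and for up to 5 called genes of each other list with Atf4, Asns and the scaffold genes. Other names, such as Ddit3, Trib3 and members not called, were added after their values were seen. The members and lists were chosen with earlier results of these data known. Library totals of 17815568 to 24814263 set the counting error, which the SDs include. DESeq2 1.42.0, limma-voom 3.58.1, other scalings, filters, thresholds, a replicate block and leaving out each library were alternatives.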

Additional observations from a re-analysis of the deposited data

Results flagged for a closer look

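For each gene and ratio, on the log2 CPM scale, the distance from the highest or the lowest of 6 libraries to the next one was taken as a share of the whole spread, and shares above the 95% critical value of Dixon are given. Of 110 groups examined, 8 passed, where chance gives about 5.5. Fibrotic replicate 4 gave 4 of them. It was the highest fibrotic library for Farsb (0.641) and for the ratio of Farsb to Fars2 (0.707), and the lowest for Mars (0.685) and Fars2 (0.655). Fibrotic replicate 3 was the highest fibrotic library for Cars2 (0.778). Among FLO libraries, replicate 2 was the lowest for Tars2 (0.668), and replicate 6 was the lowest for Vars2 (0.646) and for Wars2 (0.652).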

How the results depend on the processing

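The 6 called genes were also the 6 called with RLE or upper quartile scaling, TMM without the 50 genes with most counts, 3 other low-count filters, DESeq2, limma-voom, edgeR without robust estimation, the replicate block and an FDR of 0.05. Leaving out each library in turn gave 5 to 7 called genes. Scaling by total counts alone moved the median of all tested genes from 0.03 to 0.20 and the share of calls that were higher from 53.3% to 71.8%. The median log2 fold change was then 0.17 over all synthetase genes, 0.17 over cytosolic and 0.17 over mitochondrial ones, and 8 genes were called, 7 higher and 1 lower. These were 4 cytosolic genes, 3 of them higher (Gars, Hars and Aars), and 4 mitochondrial genes, all higher, with Mars2 called and Vars2 not. Members near 0 such as Nars, Vars, Farsb, Kars and Tars2 changed sign under some alternatives without a call. With no fold threshold, 15 genes passed, 8 cytosolic and 7 mitochondrial. Over members whose exons overlap no other gene, an alternative chosen after seeing the data, 4 of 23 were called, and 2 of 9 mitochondrial ones. The replicate numbers share only a number, with same-number correlations from -0.16 to 0.10 and 0 libraries closest to their own number. The replicate block left 6 genes called, while in the paired sign-flip test of the ratios 0 of 18 pairs passed. Of these, 11 had the smallest p that 6 pairs of libraries allow, 0.03125, which adjusts to 0.0511. Depth limited Wars2, Mars2 and Pars2 most, which had the lowest mean CPM in FLO livers, and the SE of a log2 fold change reached 0.20, for Wars2.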

Other observations

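Wars, the cytosolic tryptophanyl-tRNA synthetase, is known as an interferon-induced gene. Its level was 20.5 ± 1.83 CPM in fibrotic and 19.9 ± 1.47 CPM in FLO livers (SD, n = 6 each), a log2 fold change of 0.05 that was not called (edgeR adjusted p = 0.666). Of 12 tested interferon response genes, Isg15 and Psmb8 rose by 1.68 and 0.71 on the log2 scale, and Gbp2 fell by 0.90. The other 9 were not called, and the median of the list was -0.10. Over all tested genes, 15.9% were called higher and 14% lower.

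Within the FLO group, replicates 1 and 3 were the highest libraries for many synthetase genes, a pattern noticed after the values were seen and given with no test. They were the top pair among the 6 FLO libraries for 16 of the 37 genes (43.2%), and for 13.2% of the 13416 tested genes. By compartment this held for 11 of 20 cytosolic and 5 of 17 mitochondrial genes, and for 8 of the 13 ATF4-linked genes, Tars and Gars among them. The summed synthetase level was 1611 and 1561 CPM in these libraries and 1311 to 1424 CPM in the other FLO libraries. FLO replicate 3 is the library whose Xist and Ddx3y counts went against its label.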
